A study of Mus musculus with 12 samples.

Results

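The sarcomere gene set comprised 44 genes of the thick filament, the thin filament, the Z disc and the M band, with titin, out of 55385 genes listed in the deposited count table. The genes were named individually and were matched by symbol; all 44 were found. They were chosen with the difference between EED-/- and WT cerebellum already known, so that difference is given below as a description: calls of the fit over all genes are counted, but no p-value is given for a member and no such count stands as evidence. Counts of members are set beside the share of all genes that met the same criterion.

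Polyadenylated RNA was sequenced from whole cerebellum of C57BL/6 mice at postnatal day 14. The 3 EED-/- libraries came from mice with a conditional knockout of Eed, and the 3 WT libraries came from wild-type mice of the same strain and age. Eed encodes the subunit of Polycomb repressive complex 2 that binds trimethylated lysine 27 of histone H3. Which Cre line was used and what it deletes are not in the labels, nor is it said there whether each library is a separate animal, so the p-values below measure only the spread between libraries, which may be technical. A further 6 ChIP-seq samples of the same study were not analysed here.

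The sarcomere is the contractile unit of striated muscle. Myosin of the thick filament pulls on actin of the thin filament, troponin and tropomyosin make that pull depend on calcium, titin spans the unit, and the Z disc and M band anchor the filaments. Many of its proteins exist as embryonic, slow or cardiac, and fast isoforms from separate genes, and muscle exchanges them as it matures; neurons do not build sarcomeres, although several tropomyosin genes also make nonmuscle isoforms.

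Libraries held 19621814 to 20366173 estimated counts, and 18091 genes passed the filter on low counts. Levels are given as CPM, that is counts relative to the library total, scaled with TMM factors that ranged from 0.951 to 1.05, and are listed in the order of replicates 1 to 3 of each genotype. Eed itself (ENSMUSG00000030619.10), the check of the labels, was at 11.6, 9.31 and 11.3 CPM in the EED-/- libraries and 20.1, 26.6 and 23.5 CPM in the WT libraries, without overlap (log2 fold change -1.12 ± 0.15 SE, adjusted p 0.0015, edgeR quasi-likelihood test with Benjamini-Hochberg adjustment). All 15 granule neuron markers fell, Cbln1 and Zic1 among them, with summed levels of 903 to 1166 CPM in EED-/- libraries and 6404 to 8133 CPM in WT libraries. Of 13 Purkinje cell markers none rose and 2, Lhx1 and Gng13, fell. Over all tested genes 11.7% rose and 14.1% fell at an adjusted p under 0.05. Gng13 lost its call without any 1 of 5 libraries (adjusted p 0.0529 to 0.105), and 3 Purkinje cell markers rose without WT replicate 1. In bulk tissue, fewer cells of a type and less RNA per cell cannot be told apart, and a smaller share of granule neuron RNA leaves a larger share of the counts to all other RNA.

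Most of the sarcomere genes were under 1 CPM in WT cerebellum and several-fold higher in EED-/- cerebellum. Of the 44 members 41 passed the filter on low counts, and 35 of these were called higher in EED-/- libraries and 0 lower at an adjusted p under 0.05, where 11.7% of all tested genes were called higher and 14.1% lower. In 36 of the 41, every EED-/- library lay above every WT library, which held for 20.1% of tested genes. The median log2 fold change was 2.71 over the tested members and -0.03 over all tested genes. The 3 members that did not pass the filter were Myh2, Myh4 and Myoz1. These counts describe how the set was put together. Leaving out EED-/- replicate 1 gave 34 members and 1205 tested genes called higher, with 1335 tested genes lower. Over all tested genes, leaving out EED-/- replicate 2 gave 1337 higher, leaving out EED-/- replicate 3 gave 1677 lower, and leaving out WT replicate 3 gave 1324 higher and 1640 lower. A difference of at least 2-fold was found in 34 of the called members and in 5.77% of tested genes. In the authors' deposited table of differences 35 of the 44 members had an adjusted p under 0.05 with a higher level in the knockout and 0 a lower one, and all 41 tested members had the same sign there. These were not the same 35 genes: Mybpc2 was called higher here but missed the threshold there. Myh4 passed the threshold there but was not tested here. The 44 genes lie on 17 chromosomes.

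Promoter sequences are shown for the 4 members with the highest level per kilobase in EED-/- cerebellum among those with no overlap between genotypes (Tpm1, Acta1, Tpm2 and Mylpf), and for the embryonic and perinatal myosins Myh3 and Myh8, which had the largest differences of the myosins. Each runs 5′ to 3′ in the direction of the gene, from 250 bases before to 50 bases after the start in RefSeq on GRCm38.p6. The windows are chr9:67049164-67049463 on the minus strand for Tpm1, chr8:123894726-123895025 on the minus strand for Acta1, chr4:43523505-43523804 on the minus strand for Tpm2, chr7:127211358-127211657 on the plus strand for Mylpf, chr11:67078050-67078349 on the plus strand for Myh3 and chr11:67276874-67277173 on the plus strand for Myh8. Capitals mark matches, on either strand, to the E-box CAGCTG, to the TATA letters, which read TATAAA, to the TEAD-type letters, which read GGAATG, and to the CArG box of serum response factor.
Tpm1: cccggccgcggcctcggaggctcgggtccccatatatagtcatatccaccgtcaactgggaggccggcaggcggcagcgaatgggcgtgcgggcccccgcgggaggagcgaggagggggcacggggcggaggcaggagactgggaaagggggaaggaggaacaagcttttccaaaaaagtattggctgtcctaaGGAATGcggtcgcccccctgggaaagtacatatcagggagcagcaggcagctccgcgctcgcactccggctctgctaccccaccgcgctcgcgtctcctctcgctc
Acta1: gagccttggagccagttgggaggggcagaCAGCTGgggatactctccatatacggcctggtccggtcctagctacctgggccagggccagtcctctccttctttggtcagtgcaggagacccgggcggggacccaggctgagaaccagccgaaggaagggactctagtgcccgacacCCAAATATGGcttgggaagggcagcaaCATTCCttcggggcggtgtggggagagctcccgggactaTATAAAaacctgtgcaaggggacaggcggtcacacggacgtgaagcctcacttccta
Tpm2: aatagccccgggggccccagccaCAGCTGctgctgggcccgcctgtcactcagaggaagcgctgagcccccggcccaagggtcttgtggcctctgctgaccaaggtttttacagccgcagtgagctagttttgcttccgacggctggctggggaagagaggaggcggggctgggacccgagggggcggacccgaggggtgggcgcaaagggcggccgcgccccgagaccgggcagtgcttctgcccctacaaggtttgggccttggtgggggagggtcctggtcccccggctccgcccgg
Mylpf: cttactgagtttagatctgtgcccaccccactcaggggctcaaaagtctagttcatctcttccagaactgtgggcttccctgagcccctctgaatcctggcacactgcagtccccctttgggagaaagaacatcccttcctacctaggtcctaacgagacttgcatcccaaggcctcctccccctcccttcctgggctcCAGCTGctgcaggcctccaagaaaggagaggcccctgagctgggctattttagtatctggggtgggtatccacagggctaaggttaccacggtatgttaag
Myh3: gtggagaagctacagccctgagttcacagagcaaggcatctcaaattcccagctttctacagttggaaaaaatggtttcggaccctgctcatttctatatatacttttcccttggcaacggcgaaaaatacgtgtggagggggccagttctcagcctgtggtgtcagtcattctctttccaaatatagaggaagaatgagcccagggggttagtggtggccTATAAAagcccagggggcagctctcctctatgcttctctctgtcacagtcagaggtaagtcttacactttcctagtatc
Myh8: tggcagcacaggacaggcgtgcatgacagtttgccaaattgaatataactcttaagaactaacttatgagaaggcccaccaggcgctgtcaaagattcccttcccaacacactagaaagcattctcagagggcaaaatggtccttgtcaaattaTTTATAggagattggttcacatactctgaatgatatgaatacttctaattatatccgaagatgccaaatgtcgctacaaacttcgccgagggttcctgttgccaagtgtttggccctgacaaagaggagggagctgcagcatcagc

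Acta1, the skeletal actin gene, held the most of these matches among the 6 windows: the E-box CAGCTG in its distal part, a CArG box nearer the start, the TEAD-type letters on the opposite strand, and the TATA letters beginning 7 bases before the start. The same E-box was found in Tpm2 and Mylpf, and the TEAD-type letters in Tpm1. The TATA letters began 29 bases before the start of Myh3, and on the opposite strand 96 bases before that of Myh8. Of the 44 members 34 had an entry. The E-box CAGCTG was found in 14 of them (41.2%) against 18.3% of the promoters of all 27025 genes, and the TATA letters in 12 (35.3%) against 15.7%. The TEAD-type letters were found in 13 (38.2%) against 16.6% of all genes, and a further E-box, CACCTG, in 10 (29.4%) against 22.6%. The CArG box was found in 6 of the 34 (17.6%) against 1.81% of all genes, and the MEF2 box, whose letters can overlap the TATA letters, in 3 (8.82%) against 0.636%. Both strands were searched. A match describes letters in a window and shows neither binding nor use of the site.

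The 5 embryonic and perinatal genes were low in WT cerebellum, at 1.45 CPM or less, and detected in every EED-/- library. Myh3 (ENSMUSG00000020908.14), the embryonic myosin heavy chain, had 29.6, 32.3 and 20.4 CPM in EED-/- libraries, against 0.513, 0.697 and 0.155 CPM in WT libraries. Myh8 (ENSMUSG00000055775.16), the perinatal heavy chain, had 26.1, 34.0 and 20.5 CPM in EED-/- libraries, against 0.308, 0.429 and 0.413 CPM in WT libraries. Both were under 1 CPM in every WT library and above 20 CPM in every EED-/- library, and their log2 fold changes of 5.90 ± 0.37 (SE) and 6.11 ± 0.28 (SE) were the highest of the 41 tested members with all 6 libraries. Actc1 (ENSMUSG00000068614.7), the cardiac actin that developing skeletal muscle also uses, had 3.74, 5.60 and 2.06 CPM in EED-/- libraries, against 0.0513, 0.215 and 0.155 CPM in WT libraries. Myl4, the atrial and embryonic essential light chain, had 7.43, 9.55 and 5.58 CPM in EED-/- libraries, against 1.18, 0.966 and 1.29 CPM in WT libraries. Tnnt2, the troponin T of heart and of embryonic skeletal muscle, had 17.2, 17.3 and 14.2 CPM in EED-/- libraries, against 0.872, 1.45 and 1.45 CPM in WT libraries. In all 5 genes of this class the genotypes did not overlap, as was the case with a higher EED-/- level in 20.1% of tested genes, and the log2 fold changes of Actc1, Myl4 and Tnnt2 were 4.71 ± 0.54 (SE), 2.71 ± 0.26 (SE) and 3.69 ± 0.22 (SE).

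**Figure D1:**
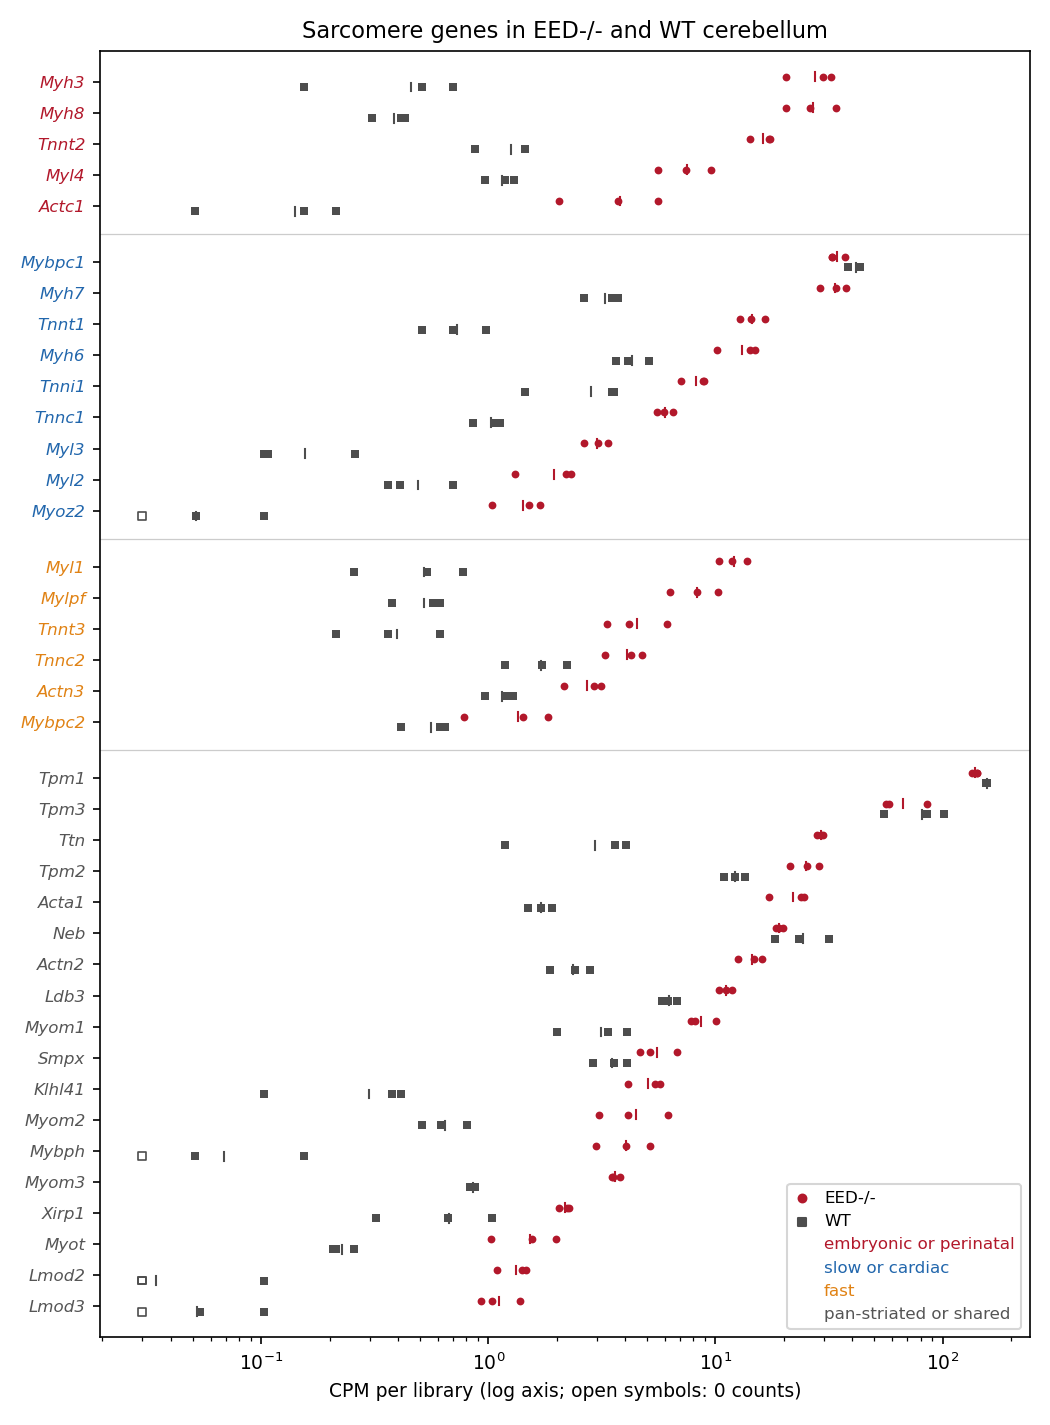
Level of each of the 38 sarcomere genes that reached a mean of 1 CPM in at least 1 genotype (y axis, grouped by isoform class), in CPM on a log axis (x axis). Points are the 3 EED-/- libraries (red circles) and 3 WT libraries (grey squares), bars are means and open symbols mark 0 counts; Myh3 and Myh8 show the widest gap between genotypes, and the points of Tpm1, Tpm3, Neb and Mybpc1 lie close together.

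Of the 9 slow and cardiac members 8 were called higher, beside 11.7% of all tested genes, and both heavy chains were already above 2 CPM in each WT library. Myh7, the slow skeletal and cardiac heavy chain, had 37.5, 28.9 and 34.0 CPM in EED-/- libraries, against 3.49, 2.63 and 3.72 CPM in WT libraries. Myh6, the cardiac heavy chain of the neighbouring gene, had 10.1, 14.2 and 15.0 CPM in EED-/- libraries, against 3.64, 4.13 and 5.12 CPM in WT libraries. The log2 fold change of Myh7 was 3.35 ± 0.18 (SE) and that of Myh6 1.61 ± 0.21 (SE), so the fitted change of the slow chain was the larger of the pair. Among the light chains, Myl2, the regulatory chain of ventricle and slow fibres, had 2.32, 1.32 and 2.20 CPM in EED-/- libraries, against 0.410, 0.697 and 0.362 CPM in WT libraries. Myl3, the essential chain of the same muscles, had 3.36, 2.63 and 3.03 CPM in EED-/- libraries, against 0.103, 0.107 and 0.258 CPM in WT libraries, with a log2 fold change of 4.21 ± 0.37 (SE). The ranges of both light chains were apart between genotypes, as was the case with a higher EED-/- level in 20.1% of tested genes.

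The slow troponin complex had all 3 subunits higher. Tnnt1, slow troponin T, which ties the complex to tropomyosin, had 16.5, 14.3 and 12.8 CPM in EED-/- libraries, against 0.513, 0.697 and 0.982 CPM in WT libraries. Tnni1, slow troponin I, the inhibitory subunit, had 7.05, 8.79 and 8.86 CPM in EED-/- libraries, against 3.59, 3.49 and 1.45 CPM in WT libraries. Tnnc1, the calcium-binding troponin C of slow muscle and heart, had 6.49, 5.55 and 5.92 CPM in EED-/- libraries, against 1.13, 0.858 and 1.09 CPM in WT libraries. No EED-/- library overlapped a WT library in any of them, as was the case with a higher EED-/- level in 20.1% of tested genes. The log2 fold changes were 4.30 ± 0.25 (SE) for Tnnt1, 1.53 ± 0.31 (SE) for Tnni1 and 2.54 ± 0.21 (SE) for Tnnc1. Myoz2, a Z-disc calsarcin of slow fibres and heart that binds calcineurin, had 1.04, 1.69 and 1.52 CPM in EED-/- libraries, against 0.103, 0 and 0.0517 CPM in WT libraries. These are 89 counts in EED-/- libraries together and 3 in WT libraries together, a ratio of 27.1 with a 95% interval of 8.99 to 134 for counting error only.

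Mybpc1, slow myosin-binding protein C of the thick filament, went the other way. It had 32.7, 37.1 and 32.7 CPM in EED-/- libraries, against 43.1, 38.1 and 42.9 CPM in WT libraries, so every EED-/- library was below every WT library, by a log2 fold change of -0.28 ± 0.11 (SE) that did not pass the adjusted p. It was the only slow or cardiac member of the 9 that was not called higher.

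Fast isoforms made up 11 members, of which 8 passed the filter and were called higher, beside 11.7% of all tested genes. Myl1, the fast essential light chain, had 11.9, 13.8 and 10.3 CPM in EED-/- libraries, against 0.257, 0.536 and 0.775 CPM in WT libraries. Mylpf, the fast regulatory light chain, had 8.28, 10.3 and 6.31 CPM in EED-/- libraries, against 0.616, 0.376 and 0.568 CPM in WT libraries. Both were under 1 CPM in each WT library and above 6 CPM in each EED-/- library, with log2 fold changes of 4.51 ± 0.31 (SE) and 3.98 ± 0.29 (SE). Tnnt3, fast troponin T, had 4.17, 6.11 and 3.33 CPM in EED-/- libraries, against 0.616, 0.215 and 0.362 CPM in WT libraries. Tnnc2, fast troponin C, had 4.26, 4.75 and 3.28 CPM in EED-/- libraries, against 1.18, 1.72 and 2.22 CPM in WT libraries. Of these troponin subunits Tnnt3 had the larger log2 fold change, 3.49 ± 0.39 (SE) against 1.261 ± 0.28 (SE) for Tnnc2, whose WT level per kilobase was the higher of the pair. Actn3, the fast-fibre alpha-actinin that crosslinks actin at the Z disc, had 3.12, 2.92 and 2.15 CPM in EED-/- libraries, against 1.28, 0.966 and 1.19 CPM in WT libraries. Mybpc2, fast myosin-binding protein C, had 1.42, 1.83 and 0.783 CPM in EED-/- libraries, against 0.616, 0.644 and 0.413 CPM in WT libraries. Genotypes were apart for both, as was the case with a higher EED-/- level in 20.1% of tested genes. The lowest EED-/- library of Mybpc2, replicate 3, stood just above its highest WT library.

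The adult fast heavy chains were low in both genotypes. Myh1, the heavy chain of fast IIx fibres, was at 0.685 to 1.13 CPM in EED-/- libraries and 0.103 to 0.161 CPM in WT libraries. Myh2, the IIa chain, had 21 counts over the 3 EED-/- libraries and 5 over the 3 WT libraries, and Myh4, the IIb chain, had 54 counts in EED-/- and 3 in WT, a ratio of 16.5 with a 95% interval of 5.34 to 82.4. All 3 were under the embryonic and perinatal chains in each EED-/- library on the CPM scale and also per kilobase. Tnni2, fast troponin I, was at 0.685 to 1.27 CPM in EED-/- libraries and 0.0536 to 0.103 CPM in WT libraries. Myoz1, the fast-fibre calsarcin, had 10 counts over the EED-/- libraries and 0 over the WT libraries, at least 3.05-fold higher in EED-/- against a floor of 3 counts over the group.

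**Figure D2:**
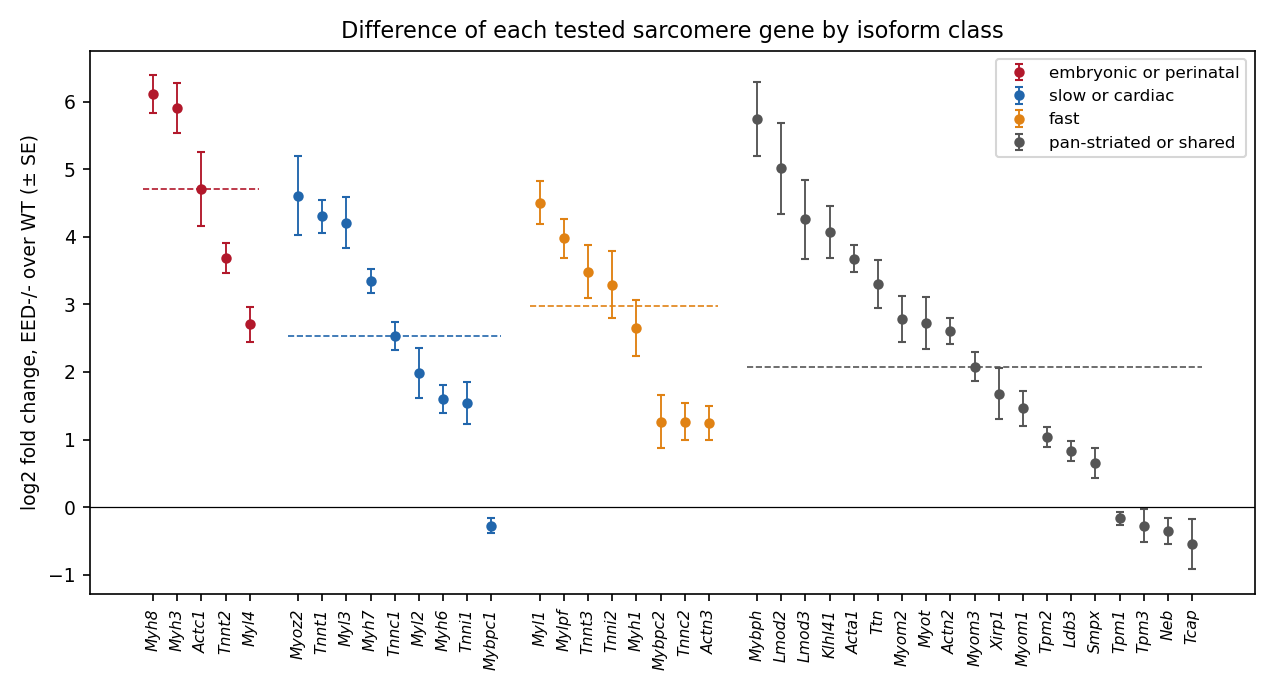
Log2 fold change of EED-/- over WT (y axis) with its SE for the 41 tested sarcomere genes (x axis), by isoform class, with a dashed line at the class median. The embryonic or perinatal class had the highest median, 4.71, and Mybpc1, Tpm1, Tpm3, Neb and Tcap lie below 0; the genes were chosen on this difference.

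The remaining 19 members serve all striated muscle or are shared with other cells, and they split into genes that were low in WT cerebellum and genes that WT cerebellum also expressed. In the thin filament, Acta1 (ENSMUSG00000031972.5), skeletal actin, had 23.8, 24.5 and 17.3 CPM in EED-/- libraries, against 1.90, 1.50 and 1.71 CPM in WT libraries. The log2 fold change of Acta1 was 3.68 ± 0.20 (SE) and its genotypes were far apart. Tpm2, beta-tropomyosin, which lies along actin, had 25.4, 28.6 and 21.4 CPM in EED-/- libraries, against 13.5, 12.2 and 11.0 CPM in WT libraries. It was called higher with a log2 fold change of 1.04 ± 0.15 (SE), with more than 10 CPM in each WT library. Tpm1, alpha-tropomyosin, had 142, 135 and 141 CPM in EED-/- libraries, against 158, 155 and 156 CPM in WT libraries. Tpm3, the slow tropomyosin that also makes many nonmuscle isoforms, had 85.5, 58.3 and 56.5 CPM in EED-/- libraries, against 102, 85.0 and 55.4 CPM in WT libraries. Tpm1 was lower in every EED-/- library by a log2 fold change of only -0.17 ± 0.10 (SE), Tpm3 overlapped between genotypes at -0.27 ± 0.24 (SE), and neither passed the adjusted p. Neb, nebulin, which runs along the thin filament of skeletal muscle, had 18.5, 19 and 19.8 CPM in EED-/- libraries, against 18.2, 31.7 and 23.2 CPM in WT libraries. Nebulin overlapped between genotypes, its WT libraries were further apart than its EED-/- libraries, and its log2 fold change was -0.35 ± 0.19 (SE).

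Lmod2, Lmod3 and Klhl41 were under 1 CPM in each WT library. Lmod2, a leiomodin that nucleates actin in heart and muscle, had 1.09, 1.41 and 1.47 CPM in EED-/- libraries, against 0, 0 and 0.103 CPM in WT libraries, or 83 counts in EED-/- libraries together and 2 in WT libraries together (ratio 38.0, 95% interval 10.2 to 319). Lmod3, its skeletal counterpart, had 1.37, 1.03 and 0.930 CPM in EED-/- libraries, against 0, 0.0536 and 0.103 CPM in WT libraries, or 70 counts in EED-/- and 3 in WT (ratio 21.4, 95% interval 7.01 to 106). Klhl41, a Kelch protein that stabilises nebulin in skeletal muscle, had 5.40, 5.69 and 4.11 CPM in EED-/- libraries, against 0.103, 0.376 and 0.413 CPM in WT libraries. All 3 were above 0.9 CPM in each EED-/- library, and Klhl41 had a log2 fold change of 4.07 ± 0.38 (SE).

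Titin (Ttn), the elastic filament that runs from Z disc to M band, had 28.1, 29.2 and 29.9 CPM in EED-/- libraries, against 1.18, 4.02 and 3.62 CPM in WT libraries. Its EED-/- libraries were close together, its WT libraries were apart with replicate 1 the lowest, and the log2 fold change was 3.31 ± 0.35 (SE). The 3 myomesins, which crosslink thick filaments at the M band, were all higher. Myom1, the myomesin found in all striated muscle, had 8.10, 10.1 and 7.83 CPM in EED-/- libraries, against 2.001, 4.08 and 3.36 CPM in WT libraries. Myom2, the form of fast fibres and adult heart, had 4.12, 6.21 and 3.08 CPM in EED-/- libraries, against 0.513, 0.805 and 0.620 CPM in WT libraries. Myom3, the form of intermediate fibres, had 3.50, 3.81 and 3.52 CPM in EED-/- libraries, against 0.872, 0.858 and 0.827 CPM in WT libraries. Their log2 fold changes were 1.46 ± 0.26 (SE), 2.78 ± 0.34 (SE) and 2.08 ± 0.21 (SE), and no library of one genotype reached the range of the other. Such a gap with a higher EED-/- level was found in 20.1% of tested genes. Mybph, myosin-binding protein H of the thick filament, had 4.02, 5.13 and 2.99 CPM in EED-/- libraries, against 0.0513, 0 and 0.155 CPM in WT libraries. Its log2 fold change of 5.74 ± 0.55 (SE) rests on only 4 counts in WT libraries together and was 6.96 without WT replicate 3.

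At the Z disc, Actn2, the alpha-actinin of heart and of all skeletal fibres, had 14.8, 15.99 and 12.5 CPM in EED-/- libraries, against 2.41, 1.88 and 2.79 CPM in WT libraries. Ldb3, which encodes the actinin-binding protein ZASP, had 11.8, 11.1 and 10.3 CPM in EED-/- libraries, against 6.77, 6.17 and 5.79 CPM in WT libraries. Xirp1, an actin-binding repeat protein of muscle attachment sites, had 2.23, 2.26 and 2.06 CPM in EED-/- libraries, against 0.667, 0.322 and 1.03 CPM in WT libraries. The 3 genes were apart between genotypes, with log2 fold changes of 2.61 ± 0.20 (SE), 0.83 ± 0.15 (SE) and 1.68 ± 0.37 (SE). Over all tested genes 20.1% were apart with a higher EED-/- level. The log2 fold change of Ldb3 was the only one below 1 among the members called higher. Myot, myotilin, which bundles actin at the Z disc, had 1.99, 1.55 and 1.03 CPM in EED-/- libraries, against 0.257, 0.215 and 0.207 CPM in WT libraries. Smpx, a small protein of striated muscle, had 4.64, 5.13 and 6.80 CPM in EED-/- libraries, against 3.59, 4.08 and 2.89 CPM in WT libraries. Smpx was higher in every EED-/- library, by a log2 fold change of 0.65 ± 0.22 (SE), but did not pass the adjusted p. Tcap, telethonin, which caps titin at the Z disc, was at 0.284 to 0.587 CPM in EED-/- libraries and 0.568 to 0.770 CPM in WT libraries, overlapping and not called.

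By position in the sarcomere, 12 of 13 tested thick filament genes, 12 of 15 thin filament genes, 7 of 9 Z-disc genes (Klhl41 among them), all 3 M-band genes and titin were called higher, beside the 11.7% of all tested genes. The 6 tested members that were not called were Tpm1, Tpm3, Neb, Tcap, Smpx and Mybpc1. The 5 members with at least 10 CPM in WT were Tpm1, Tpm3, Mybpc1, Neb and Tpm2, and 4 of these 5 were among those not called. Only 25.8% of all tested genes were called in either direction, so most tested genes were not called either. Of all 44 members 25 were under 1 CPM in WT.

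On the scale of CPM per kilobase of exon, which allows levels of different genes to be added, the embryonic or perinatal class summed to 12.9 ± 3.29 in EED-/- libraries and 0.604 ± 0.0864 in WT libraries (SD, n = 3 each). The fast class summed to 23.9 ± 5.18 in EED-/- and 3.78 ± 0.697 in WT, and the slow or cardiac class to 30.9 ± 0.87 in EED-/- and 12.6 ± 0.653 in WT. The shared class, which holds the tropomyosins, summed to 72.7 ± 6.08 in EED-/- and 48.4 ± 4.45 in WT. All 4 sums were higher in every EED-/- library than in any WT library. The class median of the log2 fold change was 4.71 for embryonic or perinatal, 2.97 for fast, 2.54 for slow or cardiac and 2.08 for shared genes; whether classes differ was not tested.

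Within each library, the make-up of the 7 heavy chains of the set was computed per kilobase as shares of their sum. Heavy chains outside the set, Myh7b, Myh13 and Myh15, are not in these shares. Myh7b, whose levels overlapped between genotypes, had 1191 counts over the EED-/- libraries and 1156 over the WT libraries (log2 fold change -0.09, edgeR adjusted p 0.835), so the shares hold only within the 7. The 7 genes together had 2223, 2390 and 1865 counts in the EED-/- libraries and 158, 152 and 190 counts in the WT libraries. In EED-/- cerebellum Myh3 made 34.6% ± 4.62 and Myh8 17.4% ± 2.67 of heavy chain reads per kilobase, against 6.71% ± 4.31 and 2.79% ± 0.442 in WT (SD, n = 3 each). Myh6 made 15.2% ± 4.01 in EED-/- and 54.4% ± 3.94 in WT, while Myh7 made 30.3% ± 5.75 in EED-/- and 32.6% ± 5.01 in WT. The shares of Myh3, Myh8 and Myh6 did not overlap between genotypes and those of Myh7 did. The adult fast chains were small in both: Myh1 1.09% in EED-/- and 1.92% in WT, Myh2 0.363% in EED-/- and 0.959% in WT, and Myh4 1.05% in EED-/- and 0.702% in WT. With the longest transcript as gene length Myh3 came to 26.9%, Myh8 to 25.8% and Myh7 to 32.4% in EED-/- libraries. The largest mean share in EED-/- was thus that of Myh3 with unions of exons and that of Myh7 with the longest transcript. In EED-/- replicate 3 Myh7 was above Myh3 with unions of exons as well, at 34.3% against 29.3%.

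**Figure D3:**
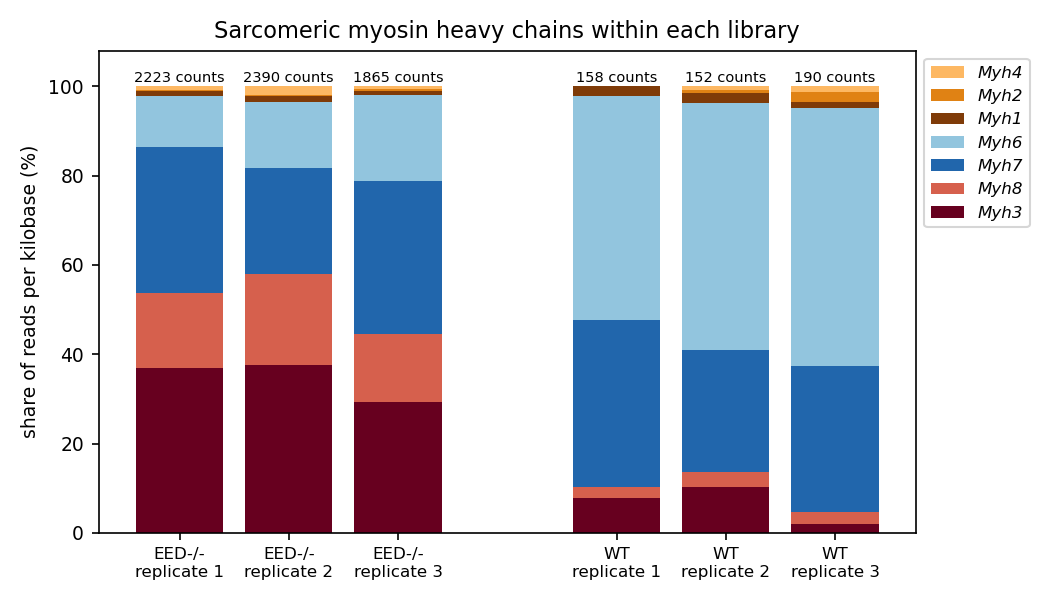
Share of each myosin heavy chain of the set in the reads per kilobase of these 7 (y axis, percent) in the 3 EED-/- and 3 WT libraries (x axis), with the summed counts of the 7 genes above each bar. Myh3 (dark red) takes 29.3% to 37.6% in EED-/- libraries and Myh6 (light blue) takes 50.1% to 57.8% of the far fewer reads in WT libraries.

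The heavy chains share sequence, which matters for the split of reads between them. Of all 31-base words of their transcripts, 37.9% in Myh1, 32.8% in Myh2, 30.4% in Myh4, 29.2% in Myh6 and 22.9% in Myh7 also occur in another gene, for Myh6 and Myh7 mostly in each other, so the estimated split within these genes is uncertain. The shares were 11.1% for Myh3 and 18.6% for Myh8. Tpm3 shared 26.99%, nearly all with the retrosequence Tpm3-rs7, and Myl1 14.5% with the pseudogene Mylf-ps. For 33 of the 44 members less than 5% was shared.

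Pairs of isoforms with the same role, compared per kilobase, differed in how they shifted. The ratio of Myh7 to Myh6 was 1.595 to 2.89 over EED-/- libraries and 0.497 to 0.748 over WT libraries. Slow over fast troponin C, Tnnc1 to Tnnc2, was 0.898 to 1.39 in EED-/- and 0.375 to 0.735 in WT. These ratios were higher in EED-/- without overlap. Slow over fast troponin I, Tnni1 to Tnni2, was 2.88 to 5.38 in EED-/- and 5.82 to 27.03 in WT, and Mybpc1 to Mybpc2 was 16.1 to 33.3 in EED-/- and 47.3 to 82.8 in WT. Myl2 to Mylpf, the regulatory light chains, was 0.0696 to 0.190 in EED-/- and 0.347 to 1.011 in WT, and Myl4 to Myl1, the essential ones, was 0.242 to 0.309 in EED-/- and 0.745 to 2.06 in WT. All 4 of these were lower in EED-/- without overlap, whereas slow over fast troponin T, Tnnt1 to Tnnt3, at 1.69 to 2.85 in EED-/- and 0.599 to 2.33 in WT, overlapped. Cardiac over skeletal actin, Actc1 to Acta1, was 0.113 to 0.217 in EED-/- and 0.0257 to 0.136 in WT, and Myl3 to Myl1 was 0.193 to 0.298 in EED-/- and 0.203 to 0.406 in WT, both overlapping. No single direction from fast to slow or from slow to fast therefore held over the pairs, and WT ratios rest on few counts.

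The EED-/- libraries were not equal for all classes. Among the 38 members that averaged 1 CPM or more in EED-/-, replicate 3 was the lowest EED-/- library for 5 of 5 embryonic or perinatal and 6 of 6 fast genes, for 12 of 18 shared genes and for 1 of 9 slow or cardiac genes. Replicate 2 was the highest for 5 of 5, 5 of 6, 9 of 18 and 2 of 9 genes of the same classes. Over all 16164 tested genes of at least 1 CPM, replicate 3 was the lowest for 40.6% and replicate 2 the highest for 35.1%. The median ratio to the EED-/- mean was 0.988, 1.264 and 0.744 for embryonic or perinatal genes in replicates 1, 2 and 3, 1.02, 1.20 and 0.775 for fast genes, and 1.08, 0.986 and 1.01 for slow or cardiac genes. Members of a class are not replicates, and each class rests on the same 3 libraries. Beside this, granule neuron markers summed to 998, 903 and 1166 CPM in EED-/- replicates 1, 2 and 3, meningeal fibroblast markers to 1027, 1334 and 1008 CPM and blood genes to 1782, 1267 and 360 CPM; the part of these in the order was not tested.

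**Figure D4:**
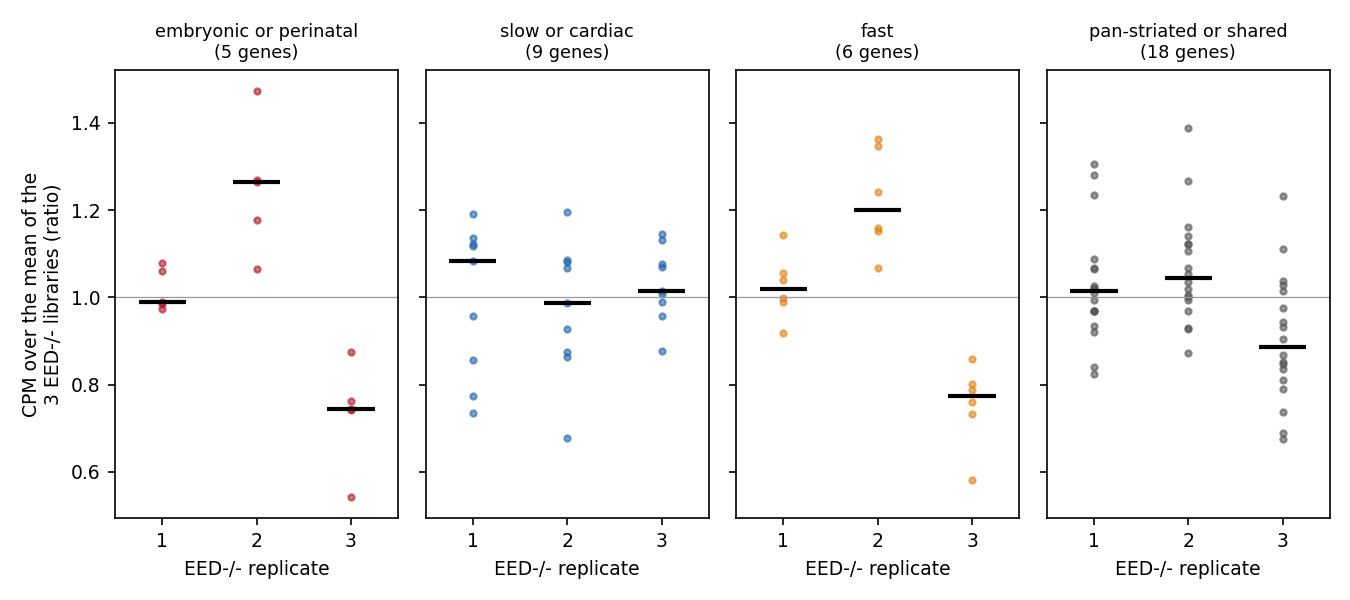
Level of each gene in an EED-/- library divided by its mean over the 3 EED-/- libraries (y axis, ratio) for replicates 1, 2 and 3 (x axis), by isoform class, with the class median as a bar. Embryonic or perinatal and fast genes sit above 1 in replicate 2 and below 1 in replicate 3, and slow or cardiac genes scatter around 1.

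The embryonic, perinatal and fast heavy chains lie in 1 cluster on chromosome 11, at chr11:67078300-67371586 of GRCm38 from Myh3 to Myh13, with Myh2, Myh1, Myh4 and Myh8 between them in that order. Of the 9 other tested genes in and around the cluster none had a log2 fold change above 0.94. Within 500 kb of the cluster 17 protein-coding genes were in the count table, 12 of them outside the gene set and 9 of these tested, chosen by position alone. Myh13, the extraocular myosin at the end of the cluster, fell, at 0.446 ± 0.120 CPM in EED-/- and 1.37 ± 0.378 CPM in WT (log2 fold change -1.61 ± 0.35 SE, edgeR adjusted p 0.0116). Gas7, a cytoskeletal protein of neurons, fell as well, to 387 ± 26.6 CPM in EED-/- against 761 ± 182 CPM in WT (log2 fold change -0.97, adjusted p 0.00438). Pirt, a regulator of sensory ion channels, rose, at 2.30 ± 0.487 CPM in EED-/- and 1.20 ± 0.293 CPM in WT (log2 fold change 0.94, adjusted p 0.0453). Without EED-/- replicate 2 the adjusted p of Myh13 was 0.0514, and that of Pirt was 0.159 without EED-/- replicate 1, 0.0974 without EED-/- replicate 3, 0.111 without WT replicate 2 and 0.0940 without WT replicate 3. The other 6 were not called, with log2 fold changes of 0.07 for Tmem220, -0.15 for Adprm, 0.03 for Sco1, -0.06 for Glp2r, -1.45 for Dhrs7c and 0.10 for Usp43. Dhrs7c passed the threshold without WT replicate 2 (log2 fold change -1.73, adjusted p 0.0325) and missed it when any other single library was left out. The background for either direction was 25.8% of tested genes.

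**Figure D5:**
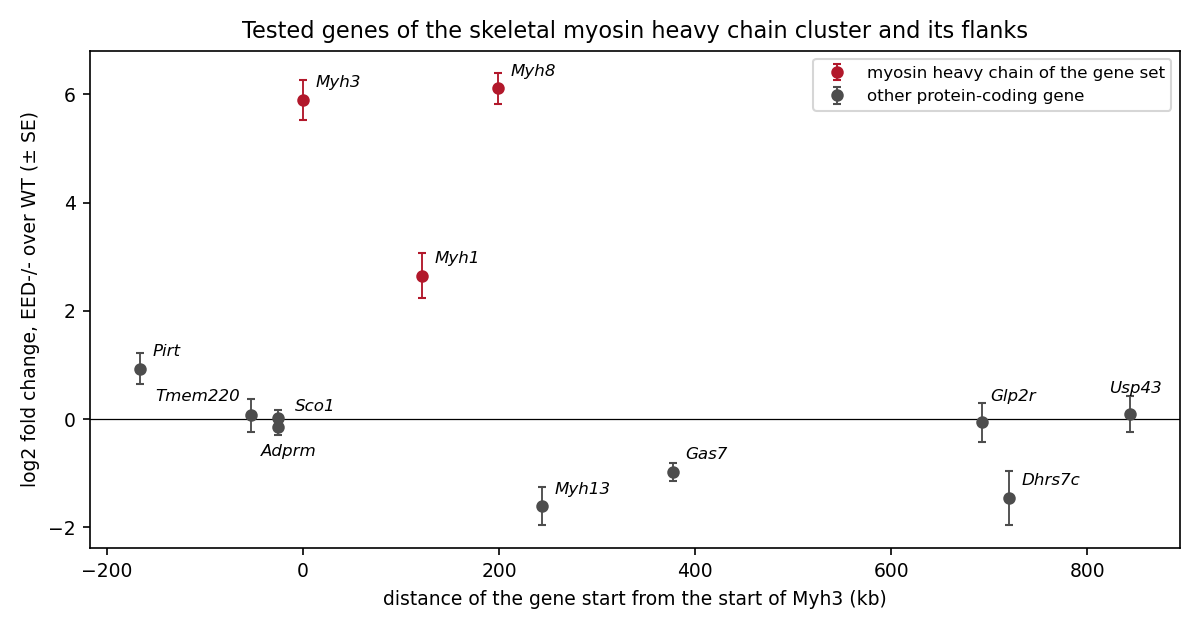
Log2 fold change of EED-/- over WT with its SE (y axis) for the tested genes of the skeletal myosin heavy chain cluster and its flanks, by distance of the gene start from that of Myh3 in kb (x axis). Myh3, Myh8 and Myh1 (red) stand above 0 and Myh13, at the end of the same cluster, lies below 0 at -1.61.

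Other members also have a member or a troponin gene close by. Myh6 and Myh7 lie 3.76 kb apart on chromosome 14 and Tnnt2 and Tnni1 25.4 kb apart on chromosome 1, and all 4 were called higher. Tnnt3 and Tnni2 lie 54.4 kb apart on chromosome 7 and were both called higher as well. Over all tested genes 11.7% were called higher. Tnnt1 lies 1.92 kb from Tnni3, the cardiac troponin I gene, which is no member. Tnni3 was at 1.04, 1.03 and 1.52 CPM in EED-/- libraries and 0.821, 0.912 and 1.50 CPM in WT libraries, overlapping (log2 fold change 0.15, edgeR adjusted p 0.779), beside the log2 fold change of 4.30 ± 0.25 (SE) for Tnnt1.

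Genes of the sarcomere outside the set moved in both directions. Of 43 tested, 18 rose and 4 fell, with a median log2 fold change of 0.79, beside 11.7% and 14.1% of all tested genes and a median of -0.03. Mybpc3, cardiac myosin-binding protein C, fell to 19.6, 13.7 and 20.8 CPM in EED-/- libraries, against 206, 165 and 168 CPM in WT libraries (log2 fold change -3.32, edgeR adjusted p 3.74e-05). Tmod1, the tropomodulin that caps actin filaments in muscle and other cells, fell to 24.2 CPM in EED-/- against 71.1 CPM in WT (log2 fold change -1.56, adjusted p 0.000356). Synpo2l, a Z-disc protein, rose to 4.11 CPM in EED-/- against 0.382 CPM in WT (log2 fold change 3.40, adjusted p 0.000115), and Mylk4, a kinase of the myosin light chain kinase family, rose to 7.09 CPM against 1.06 CPM in WT (log2 fold change 2.74, adjusted p 0.000153). The count that rose was 10 without EED-/- replicate 1 and likewise without EED-/- replicate 2.

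Beyond the filaments, regulators of the myogenic lineage were partly raised. Of 19 tested regulators 7 rose and 2 fell (median log2 fold change 0.62), beside 11.7% and 14.1% of all tested genes. Myog, the transcription factor of muscle differentiation, rose to 1.94, 2.73 and 1.32 CPM in EED-/- libraries, against 0.103, 0.107 and 0 CPM in WT libraries (log2 fold change 4.72, edgeR adjusted p 0.0011). Pax7, the factor of satellite cells that is also a dorsal neural gene, rose to 10.4, 8.75 and 8.52 CPM in EED-/-, against 2.26, 1.66 and 2.12 CPM in WT (log2 fold change 2.19, adjusted p 0.000194). Eya1, a transcriptional regulator active in muscle and other embryonic tissues, rose too (log2 fold change 1.30, adjusted p 0.000423). Without EED-/- replicate 3 the count of regulators that fell was 1.

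Myod1, the factor that starts the myogenic program, was not called, at 0.994, 0.753 and 0.343 CPM in EED-/- and 0.616, 0.376 and 0.362 CPM in WT (log2 fold change 0.62, edgeR adjusted p 0.362). Myf5, its early counterpart, had 0 counts in EED-/- libraries and 1 count in WT libraries. Myf6, a further myogenic regulator, went the other way, with 23 counts in EED-/- libraries together and 1 in WT libraries together. It was too low to be tested, and its ratio was 21.0 with an interval of 3.42 to 867 for counting error only. Myod1, Myf5 and Myf6 were picked for naming with their values in view. Of 34 tested genes of muscle excitation and energy supply, 20 rose and 6 fell (median log2 fold change 1.06), beside the same 11.7% and 14.1%. Mb, myoglobin, rose to 13.1 ± 1.95 CPM in EED-/- against 0.312 ± 0.177 CPM in WT (log2 fold change 5.36, adjusted p 4.03e-05), and Cacna1s, the voltage sensor of skeletal muscle, to 4.81 ± 0.419 CPM in EED-/- against 0.521 ± 0.0823 CPM in WT (log2 fold change 3.19, adjusted p 9.31e-05). Jph1, a junctophilin, fell to 8.04 CPM in EED-/- against 30.1 CPM in WT (log2 fold change -1.90, adjusted p 0.000136), and Clcn1, the muscle chloride channel, to 3.31, 2.87 and 2.79 CPM in EED-/- libraries, against 9.49, 10.3 and 10.3 CPM in WT libraries (log2 fold change -1.74, adjusted p 0.000236).

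Markers of other cells that hold contractile or muscle-related genes were read in the same fit, against the same background of 11.7% of tested genes that rose and 14.1% that fell. Of 9 tested smooth muscle genes 3 rose and none fell (median log2 fold change 0.59): Mylk, Acta2 and Synpo2, with log2 fold changes of 0.76, 0.93 and 0.71 and edgeR adjusted p of 0.0038, 0.0096 and 0.0221. Their list summed to 81.9 to 96.2 CPM in EED-/- libraries and 53.3 to 60.8 CPM in WT libraries, and 5 rose without WT replicate 1; Synpo2 was lost without EED-/- replicate 1 or WT replicate 3, at adjusted p of 0.101 and 0.0854. Of 9 tested heart identity genes 4 rose and 1, Mybpc3, fell (median log2 fold change 0.91). Gata4, a cardiac transcription factor also found elsewhere, had 61 counts in EED-/- libraries together and 2 in WT libraries together (ratio 27.9, 95% interval 7.40 to 236), and Hand2 had 48 counts in EED-/- and 0 in WT, at least 14.6-fold higher against a floor of 3 counts over the group. Gata6 rose by a log2 fold change of 2.70 (adjusted p 0.00191). Myl7, the atrial light chain, had 0 counts in all 6 libraries. Among the other heart identity genes too low to be tested, only Nppb had fewer counts in EED-/- libraries. Hand1 and Nppb had few counts in both genotypes. In EED-/- and WT libraries together, Nkx2-5 had 27 and 0 counts, Tbx5 36 and 6, and Nppa 29 and 11. Hand1 had 2 and 1 counts, and Nppb 3 and 8.

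Of 9 tested satellite cell markers 5 rose and 2 fell (median log2 fold change 0.91; background 11.7% and 14.1%), and the list summed to 139 to 155 CPM in EED-/- libraries and 139 to 150 CPM in WT libraries. Heyl and Vcam1 rose, by log2 fold changes of 1.14 and 0.91 (edgeR adjusted p 0.00165 and 0.000988), as did Pax7, and Cdh15, M-cadherin, fell to 3.61 ± 0.814 CPM in EED-/- against 27.9 ± 4.86 CPM in WT (log2 fold change -2.95, adjusted p 7.59e-05). Cdh15 is also a known granule neuron gene of the cerebellum. Of 21 nonmuscle counterparts of the sarcomere proteins 3 rose and 2 fell, near the background shares, with a median log2 fold change of 0.05. Among them Myh14 fell to 65.6 CPM in EED-/- against 129 CPM in WT (adjusted p 0.00224), and Myl6b rose to 15.0 CPM in EED-/- against 7.22 CPM in WT (adjusted p 0.0024).

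Markers of tissue around the cerebellum were read in the same way. Of 13 meningeal fibroblast markers 12 rose and 1, Cemip, fell (median log2 fold change 1.22; background 11.7% and 14.1%), with sums of 1008 to 1334 CPM in EED-/- libraries and 544 to 647 CPM in WT libraries and no marker at 0. Col3a1, a fibrillar collagen, rose to 103, 143 and 87.9 CPM in EED-/-, against 46.1, 36.5 and 40.6 CPM in WT (log2 fold change 1.44, edgeR adjusted p 0.00121). The 6 blood genes had no call, with 5 at an unadjusted p under 0.05; their sums were 360 to 1782 CPM in EED-/- libraries and 258 to 559 CPM in WT libraries, and 5 rose without EED-/- replicate 3. The labels do not say how meninges or adjoining head tissue were removed. The part of meningeal tissue, blood, smooth muscle or muscle outside the brain in the levels of the sarcomere genes was not tested.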

How the data were processed

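RNA-seq of 3 EED-/- and 3 WT libraries of cerebellum was used. The deposited table holds estimated counts per gene that the authors did not scale between libraries; per the submitters' processing notes Salmon 1.1.0, Trimmomatic 0.36 and DESeq2 1.26.0 were used, with the build GRCm38, in roles the notes do not give. Per the file headers, the authors' deposited table of differences is a DESeq2 results table, giving for each gene a mean signal, the log2 fold change (knockout over wild type) with its error, a test score, and p-values before and after adjustment. Estimated counts of close paralogues depend on how reads they share were divided. The sources used here do not state if counting was stranded.

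Estimated counts were rounded, filtered with filterByExpr, scaled with TMM and tested with edgeR 4.0.16 (quasi-likelihood, robust, two-sided) in R 4.3.3, genotype as the only term and a Benjamini-Hochberg adjusted p under 0.05 over all 18091 tested genes. The procedure was tested on simulated counts. Each SE was obtained from the log2 fold change and its F statistic. Gene lengths are unions of exons in the GENCODE annotation of GRCm38; promoters are from RefSeq on GRCm38.p6. Intervals (exact, 95%) and floors (3 counts over a group) cover counting error only, since amplified reads are not independent molecules. Replicates of a genotype differed beyond sampling noise in every pair (chi-square over its degrees of freedom between 9.11 and 61.4), and all were kept as separate samples.

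The members and the 11 gene lists were chosen with earlier results of these data known. Levels per library are given for every member that averaged 1 CPM or more in the higher genotype. Of each list up to 4 called genes with the smallest adjusted p are named, or the one with the smallest p; 1 such gene is not reported here. Myod1, Myf5, Myf6, Myh7b, Myl7 and Tnni3, the other heart identity genes too low to be tested, and the genes of the closing section, were named after their values were seen. Alternatives were RLE, upper-quartile and library-size scaling, no filter, DESeq2 1.42.0, limma-voom (limma 3.58.1), a replicate block, the longest transcript as gene length, and leaving out each library. Promoter entries were missing for 10 members, and 4 listed symbols were absent from the table.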

Additional observations from a re-analysis of the deposited data

How the results depend on the processing

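No member value changed sign under any of 13 alternative settings, library omissions included: of 533 recomputed log2 fold changes 513 moved by less than the SD between replicates, 20 by more and 0 reversed, and 34 to 36 members were called higher without 1 library, with 0 lower. The median log2 fold change of all genes was -0.03 with TMM, 0.07 with library size alone and 0.09 with upper-quartile scaling, and Tpm1, at -0.17, was then at -0.07 and -0.05. With the longest transcript as length, class sums per kilobase in EED-/- and WT were 18.7 and 0.960 for embryonic or perinatal, 34.8 and 4.66 for fast, 47.5 and 15.9 for slow or cardiac, and 125 and 103 for shared genes, and shares of heavy chains were 26.9% for Myh3, 25.8% for Myh8 and 0.878% for Myh1 in EED-/-, and 4.43% for Myh8 and 49.5% for Myh6 in WT. Smooth muscle genes that rose numbered 6 with upper-quartile scaling and 5 without the filter, and myogenic regulators 11 without the filter, where more genes are tested. Purkinje cell markers that rose numbered 2 with DESeq2 and 1 with library size alone, limma-voom, no filter or upper-quartile scaling; those that fell numbered 1 with library size alone or upper-quartile scaling. Blood genes that rose numbered 1 with DESeq2. The causes were not tested.

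Deviations from the genotype means did not go together in libraries of the same replicate number (correlations 0.0276, -0.233 and -0.00125). These values were not compared with libraries of unlike number and cannot settle whether libraries were paired. With the replicate block 2 blood genes rose and 1 Purkinje cell marker fell, and Pirt had an adjusted p of 0.0581. Without 1 library, all tested genes called higher numbered 1205 to 2176 and lower 1335 to 2476, other sarcomere genes that rose 10 to 18, myogenic regulators that fell 1 to 3, smooth muscle genes that rose 2 to 5, blood genes that rose 0 to 5, and Purkinje cell markers that rose 0 to 3 and fell 1 to 2. Dhrs7c passed the threshold without the filter (-1.43, adjusted p 0.0247). Pirt also missed the threshold with DESeq2 (adjusted p 0.1002) and limma-voom (0.0504). Of the neighbours that were not called, Glp2r (-0.06) was at 0.040 with library size alone, 0.060 with upper-quartile scaling, 0.11 without EED-/- replicate 1 and 0.24 without WT replicate 3, with a range of -0.18 to 0.24 without 1 library; Sco1 (0.03) was at -0.014 without WT replicate 2 and -0.027 without WT replicate 3 (range -0.027 to 0.17); Tmem220 (0.07) was at -0.063 without WT replicate 1 (range -0.063 to 0.30), and Usp43 (0.10) at -0.35 without EED-/- replicate 1 (range -0.35 to 0.38). Depth limits the lowest genes: the fitted log2 fold change of Lmod2, with 2 counts in WT, ranged from 4.52 to 7.74 without 1 WT library.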

Other observations

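Several sarcomere-associated genes outside the set had counts in EED-/- libraries and few or none in WT libraries. Csrp3, Trim54 and Ankrd1 were too low to be tested. Xirp2, an actin-binding repeat protein related to Xirp1, had 53 counts in EED-/- libraries together and 0 in WT libraries together, at least 16.2-fold higher against a floor of 3 counts over the group. Csrp3, a LIM protein of the Z disc, had 56 counts in EED-/- and 0 in WT (at least 17.1-fold higher), and Trim54, a titin-binding ubiquitin ligase, 28 counts in EED-/- and 0 in WT (at least 8.54-fold higher). Ankrd1, a stress-responsive ankyrin repeat protein of titin, had 33 counts in EED-/- and 2 in WT, a ratio of 15.1 with a 95% interval of 3.86 to 130. Ckm, muscle creatine kinase, had 207 counts in EED-/- and 2 in WT, a ratio of 94.7 with a 95% interval of 25.9 to 787, at 4.50, 3.43 and 1.91 CPM in EED-/- replicates 1, 2 and 3. Mymk, the membrane protein that drives fusion of myoblasts, was at 1.37, 2.07 and 0.979 CPM in EED-/- libraries and 0.0513, 0.161 and 0.207 CPM in WT libraries (log2 fold change 3.35, edgeR adjusted p 0.00233). These genes were picked after their values were seen.

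Sarcomere genes outside the set that had more than 4 CPM in each WT library moved in both directions. Speg, a kinase of striated muscle that also has other forms, fell to 49.2, 52.5 and 40.97 CPM in EED-/- libraries, against 102, 76.7 and 84.9 CPM in WT libraries (log2 fold change -0.88, edgeR adjusted p 0.00344), as did Mybpc3 and Tmod1. Flnc, filamin C of the Z disc, rose to 16.9, 27.2 and 18.6 CPM in EED-/- libraries, against 7.39, 4.67 and 6.77 CPM in WT libraries (log2 fold change 1.74, adjusted p 0.00148). Des, desmin, the intermediate filament around the Z disc, rose to 10.7, 14.0 and 10.3 CPM in EED-/- libraries, against 5.90, 4.61 and 4.44 CPM in WT libraries (log2 fold change 1.23, adjusted p 0.00261). Flnc and Des were highest in EED-/- replicate 2, as were Myh3, Myh8 and 35.1% of all tested genes of at least 1 CPM.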
